A study of Mus musculus with 33 samples.

Results

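Serpina6 encodes corticosteroid-binding globulin, also called transcortin, the plasma carrier that binds most circulating glucocorticoid. The gene was chosen by its pattern in these same arrays, a falling level over the weeks after interferon, so its levels and their differences from untreated kidneys are given as a description, with no test. It is 1 gene of the 17097 that had a probe set annotated with a single gene symbol, and it was read by 1 probe set, 1448506_PM_at. The kidneys came from BWF1 mice (NZB X NZW F1), a hybrid strain that develops lupus nephritis spontaneously. Female mice, 8 or 9 weeks old at injection (both ages are given), received intravenously an adenovirus that expresses mouse interferon alpha (ADV_IFNa, here Adv-IFNα), and 5 kidneys were collected at each of weeks 1, 2, 3, 5, 7 and 9, for 30 treated kidneys. The 3 kidneys labelled with no treatment are of the same strain, and neither their age nor their collection week is labelled. The paper calls the untreated controls of its kidney arrays age-matched and gives no week for them. No group received an empty adenovirus, so adenovirus and interferon alpha cannot be told apart. Later kidneys came from older mice, and no untreated kidney is labelled by week, so time since injection and age cannot be told apart.

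Corticosteroid-binding globulin is a member of the serpin family without inhibitory activity. It is made mainly by the liver and is released into the blood, where it holds corticosterone, the main glucocorticoid of the mouse, in an inactive bound state. Free hormone enters cells, is regenerated or inactivated there by the 11-beta-hydroxysteroid dehydrogenases and acts through the glucocorticoid receptor, which shuttles to the nucleus with heat shock protein chaperones and immunophilins. The arrays measured whole-kidney RNA, so fewer cells of a type and less RNA per cell cannot be told apart.

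Untreated kidneys held Serpina6 at a level well above the middle of the array. The log2 intensities were 7.61, 7.33 and 7.64, a mean of 7.53 ± 0.17 (SD, n = 3), which placed the gene at the 87.9th percentile of the probe sets on the median untreated array. The medians of all probe sets on the 33 arrays lay between 3.97 and 4.09.

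At week 1 the level was little changed. The 5 kidneys read 7.11, 7.55, 7.27, 6.96 and 7.44, a mean of 7.27 ± 0.24, and 3 of the 5 lay below every untreated kidney. At week 2 the kidneys read 6.92, 6.17, 6.78, 5.88 and 4.64, a mean of 6.08 ± 0.91. All 5 lay below every untreated kidney, and replicate 5 was 1.24 below the next lowest. At week 3 the kidneys were close together, at 6.42, 6.68, 6.53, 6.39 and 6.75, a mean of 6.55 ± 0.16, and the week 3 mean was 0.48 above the week 2 mean.

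The lower levels came from week 5 on. At week 5 the kidneys read 3.92, 6.004, 5.44, 5.11 and 5.88, a mean of 5.27 ± 0.83, with replicate 1 below the rest. At week 7 they read 2.87, 3.39, 2.82, 4.93 and 3.90, a mean of 3.58 ± 0.87. At week 9 they read 3.07, 4.65, 3.63, 2.69 and 2.52, a mean of 3.31 ± 0.86. In each of weeks 7 and 9, 4 of the 5 kidneys were below the median of their own array, against none of the untreated kidneys.

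**Figure D1:**
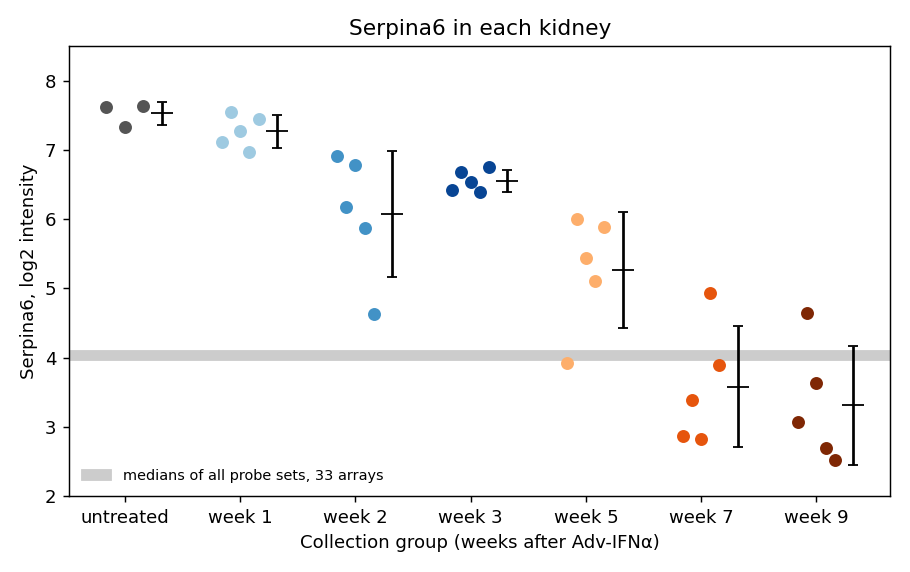
Serpina6 log2 intensity (vertical axis) in each of the 33 kidneys by collection group (horizontal axis), 1 point a kidney, with bars for the group mean ± SD beside the points and a grey band for the medians of all probe sets on the arrays. The 3 untreated kidneys lie between 7.33 and 7.64, week 3 lies above week 2 by mean, and most kidneys of weeks 7 and 9 lie under the grey band.

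On the log2 scale the group means of weeks 1, 2 and 3 differed from the untreated mean by -0.26, -1.45 and -0.97, and those of weeks 5, 7 and 9 by -2.26, -3.94 and -4.21. As ratios, the untreated mean was 1.20 times the week 1 mean, 2.73 times week 2, 1.97 times week 3, 4.78 times week 5, 15.4 times week 7 and 18.6 times week 9. Control probe sets on the array that match no transcript read up to 4.14, and 4 of the 5 kidneys in each of weeks 7 and 9 read below that, so the ratios for those weeks are not exact sizes. Week 7 replicate 4 and week 9 replicate 2 read above it. In week 5 only replicate 1 read below it, at 3.92, so the week 5 ratio carries this limit in part. Among the 17097 genes, ranked from the largest fall against untreated, Serpina6 stood in place 1735 for week 1 and 11 for week 3. It was in place 2 for weeks 2 and 7 and in place 1 for weeks 5 and 9. The places for weeks 7 and 9, and in part that for week 5, carry the same limit as the ratios.

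The fall was not steady at every step. From untreated to week 9 the group mean went down at 5 of the 6 steps and up once, from week 2 to week 3. By mean the order from high to low was untreated, week 1, week 3, week 2, week 5, week 7, week 9. Neighbours in that order had overlapping ranges, apart from week 1 and week 3, where the lowest week 1 kidney at 6.96 was above the highest week 3 kidney at 6.75. The gap from week 3 to week 2 was 0.48 in the means against an SD of 0.91 at week 2, and without replicate 5 the week 2 mean was 6.44 ± 0.49. The gap from week 7 to week 9 was 0.27 against an SD of 0.87. A fall at all 6 steps was seen in 27 genes, and 888 genes fell at 5 or 6.

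A few kidneys carried transcripts of neighbouring organs. In week 1 replicates 1 and 4 and week 2 replicate 4, Cyp11b1, the 11-beta-hydroxylase of the adrenal cortex, read 3.99 to 7.32 against at most 1.61 in the other 30 kidneys. Hsd3b1, a steroid dehydrogenase of steroid-making tissue, read at least 7.76 there against at most 3.37 elsewhere. Star, which carries cholesterol into mitochondria, read at least 5.83 there and at most 5.47 elsewhere. Hsd3b1 and Star were named after their values were seen. The mean of the 19 hepatocyte markers measured was 5.29 in week 1 replicate 4 and 5.31 in week 5 replicate 3, with Alb (albumin) at 8.71 and 9.72, against a list mean of 3.99 to 4.53 in the other 31. Serpina6 in these kidneys read 7.11, 6.96, 5.88 and 5.44, which are the lowest pair of week 1, the next to lowest of week 2 and the middle value of week 5. Without these 4 kidneys weeks 1, 2 and 5 differed from untreated by -0.11, -1.40 and -2.299, an alternative chosen after the values were seen.

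The hepatocyte markers went both ways against Serpina6. Over the 30 treated kidneys the list mean had a Pearson correlation of 0.03 with Serpina6, and -0.09 when both were taken as deviations from the mean of their own week. Single members differed widely: by value Apob had 0.75, Ttr 0.63 and Alb 0.50, and Fgg had -0.83, Fga -0.79 and Itih3 -0.51. All correlations here are descriptions: the kidneys share the disease course and the array processing, and 11 of the 19 measured hepatocyte markers lay at or below the median probe set level of 4.04.

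The genes that moved most like Serpina6 across treated kidneys were named by their correlation with it. Of 10736 genes above the median level, 160 had a correlation of at least 0.8 with Serpina6 across the 30 treated kidneys and 285 of at most -0.8, and without week 2 replicate 5 the first count was 242. The highest were Bcat2, a mitochondrial branched-chain aminotransferase, at 0.90, then Gpx6 and Eaf2 at 0.89, Pvalb at 0.89, Calb1 at 0.89, Uqcc1 at 0.88, Slc12a3 at 0.88, Ppm1l at 0.88, Tln2 at 0.88 and Echs1 at 0.87. Pvalb encodes parvalbumin, Calb1 the calcium buffer calbindin and Slc12a3 the thiazide-sensitive sodium chloride cotransporter, and these 3 of the 10 are known from the distal tubule.

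The likeness was closer in the late weeks. Pvalb had a mean of 8.84 ± 0.17 in untreated kidneys, 9.11 ± 0.16 at week 1, 8.94 ± 0.15 at week 2 and 9.07 ± 0.14 at week 3. It read 8.56 ± 0.44 at week 5, 5.78 ± 1.69 at week 7 and 6.01 ± 1.73 at week 9. At weeks 2 and 3, when Serpina6 already lay below every untreated kidney, the Pvalb mean was above its untreated mean. Within weeks 1 to 3 the correlation was 0.34 for Pvalb and -0.02 for Slc12a3, and within weeks 5 to 9 it was 0.92 and 0.87. Over the 10 highest genes it ran from -0.27 for Echs1 to 0.66 for Eaf2 in weeks 1 to 3. In weeks 5 to 9 it ran from 0.82 for Tln2 to 0.92 for Pvalb.

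The lowest correlations were those of Ctsc at -0.92, Tubb5 at -0.92, Clca3a2 at -0.92, Ptger4 at -0.92, Ankrd1 at -0.91, Fat1 at -0.91, Vasp at -0.90, Rab31 at -0.90 and Sertad4 at -0.90. Ctsc, which encodes the lysosomal protease cathepsin C, had a mean of 7.78 ± 0.24 in untreated kidneys, 7.92 ± 0.14 at week 3, 8.21 ± 0.33 at week 5, 9.04 ± 0.25 at week 7 and 8.93 ± 0.33 at week 9. Ankrd1, a stress-induced ankyrin repeat protein, went from 3.19 in untreated kidneys to 6.23 at week 7. In untreated kidneys and weeks 1 to 3 its means were 2.87 to 3.19, and those of Clca3a2 were 2.27 to 3.74. Those means lay below the median probe set level of 4.04, and both genes exceeded it only from week 5 on. Choosing genes by level thus kept these 2 for late values, when Serpina6 was low. The effect of this choice on the count at -0.8 or less was not tested. Within weeks 1 to 3 the correlation of Ctsc was -0.33, and those of the genes named here ran from -0.68 for Tubb5 to -0.23 for Clca3a2.

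**Figure D2:**
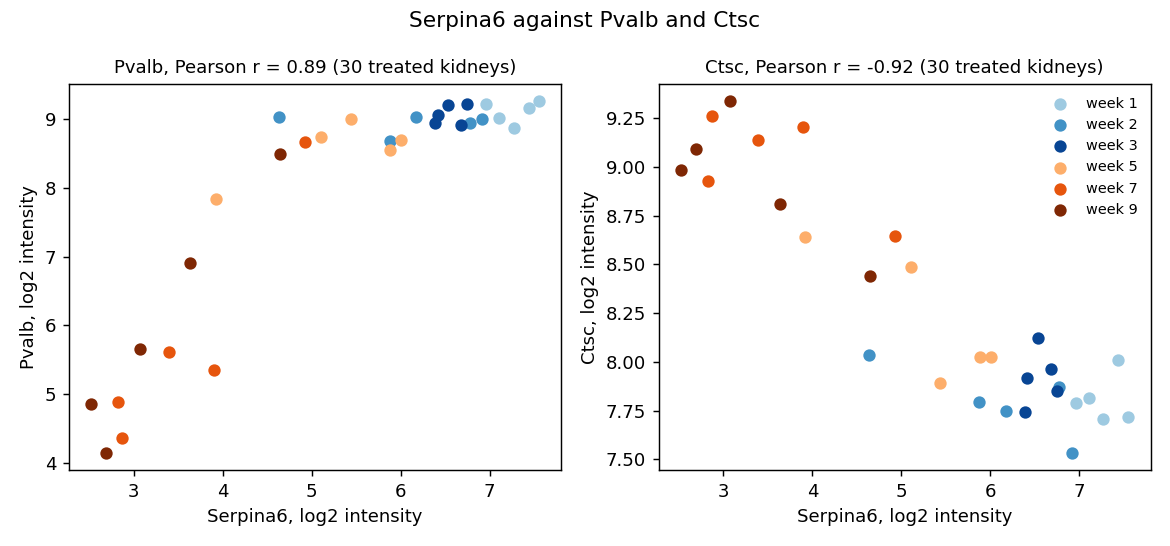
Log2 intensity of Pvalb (left, vertical axis) and Ctsc (right, vertical axis) against Serpina6 log2 intensity (horizontal axes) in the 30 treated kidneys, 1 point a kidney, coloured by week. Pvalb stays near 9 while Serpina6 runs from 7.55 to 4.64 in weeks 1 to 3 and drops with it in weeks 7 and 9, and Ctsc climbs as Serpina6 falls.

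Within a week, the genes with the lowest correlation included macrophage and interferon-induced ones. Taken as deviations from week means, 6 genes had a correlation of at least 0.7 and 17 of at most -0.7. These counts rested on a few kidneys. The 6 became 0 without week 7 replicate 4, 2 without week 9 replicate 2, 10 to 15 without week 5 replicates 2 or 5 or week 7 replicate 5, and 25 without week 2 replicate 5. The 17 became 2 without week 9 replicate 2, 3 without week 7 replicate 4 and 10 without week 9 replicate 5. It became 26 to 34 without week 2 replicates 3 or 5, week 3 replicates 2 or 4 or week 5 replicate 3, and 51 and 76 without week 7 replicates 5 and 3. The highest were Megf11 at 0.74, Gcgr, the glucagon receptor, at 0.73, Pvalb at 0.71, Ddn and Cckar at 0.70, followed by Slc33a1, Rbm4b, Slc22a30, Aqp4, a water channel, and Cox6c. The lowest were Slfn1, an interferon-induced schlafen, at -0.77, Mpp1 at -0.75, Msr1, a macrophage scavenger receptor, at -0.75, Tnfaip1, Actr3, Tlr7, an endosomal RNA sensor, at -0.73, Akr1c19, Ywhah and Eprn.

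The marker lists lay on both sides. The mean of 15 macrophage and monocyte markers had a correlation with Serpina6 of -0.88 by value and -0.63 by deviation, and 13 of the 15 had a correlation of at most -0.5. For 14 tubular injury markers it was -0.86 and -0.56. For 12 interferon-stimulated genes it was 0.05 by value and -0.61 by deviation. The mean of the 9 measured kidney markers had 0.88 and 0.68, but the list holds Pvalb, Calb1 and Slc12a3, which are among the top correlates above. The median over its members was 0.43 by value with 4 of 9 at 0.5 or more, and Umod, the uromodulin gene of the thick ascending limb, had 0.02, the podocyte gene Nphs1 0.16 and the collecting duct water channel Aqp2 -0.47. The list mean had 0.77 and 0.46 for the 39 proximal tubule genes, and -0.03 and 0.34 for 4 globin transcripts. The values by deviation depended on the kidneys used. Without week 2 replicate 5 and week 7 replicate 4 they were -0.60 for macrophage, -0.45 for injury and -0.53 for interferon genes. For kidney markers, proximal tubule genes and globins they were then 0.71, 0.33 and 0.19. Over all genes the median correlation was -0.01 by value and -0.06 by deviation, with 10.04% of genes at 0.5 or more and 13.7% at -0.5 or less by value.

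**Figure D3:**
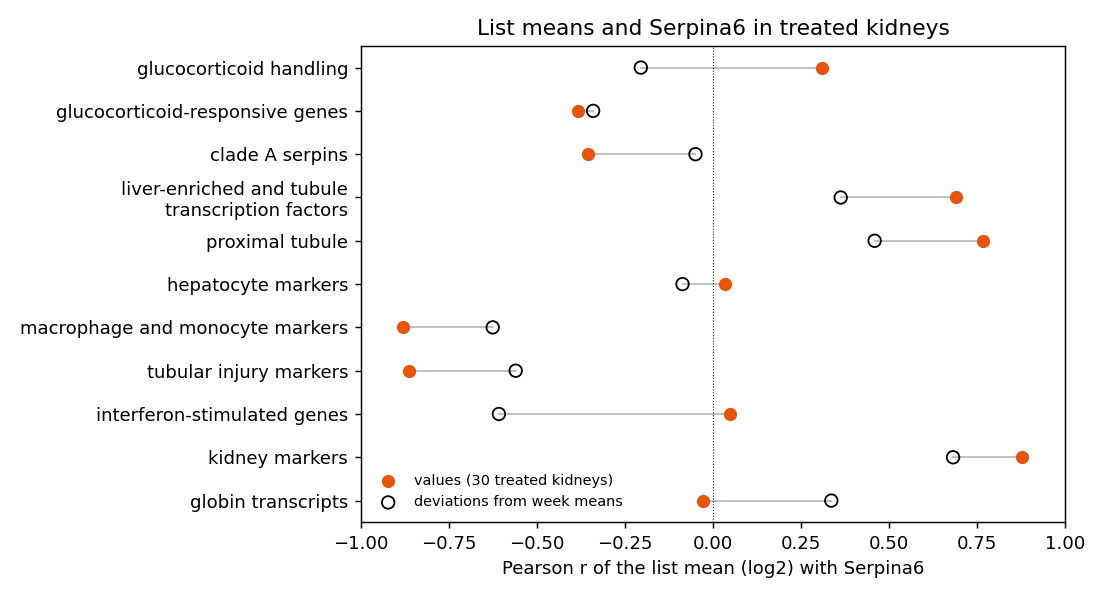
Pearson correlation of each list's mean log2 intensity with Serpina6 (horizontal axis) for 11 gene lists (vertical axis) over 30 treated kidneys, filled for values and open for deviations from week means. Macrophage and injury lists lie on the negative side by both measures and kidney and proximal tubule lists on the positive side, while the interferon list is near 0 by value and at -0.61 by deviation.

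The kidneys that stood apart in Serpina6 stood apart in other transcripts too, in some weeks. Week 7 replicate 4 (4.93) and week 9 replicate 2 (4.65) held the most Serpina6 of their weeks. Their injury list means were both 6.37, against 7.52 to 8.46 in the rest of week 7 and 6.74 to 8.28 in the rest of week 9, and their Pvalb levels were 8.67 and 8.498 with Lcn2, the tubular injury protein lipocalin 2, at 4.30 and 4.82. Week 5 replicate 1, the lowest of its week at 3.92, had the highest macrophage mean of that week, 5.53, and the lowest kidney marker mean, 8.39. Its injury mean of 6.25 lay within the 6.01 to 6.31 of the rest. Week 2 replicate 5, at 4.64, had the highest macrophage mean of its week, 4.53 against 4.29 to 4.46, and the highest injury mean, 5.96 against 5.76 to 5.92. Its kidney marker mean of 8.73 lay within the 8.58 to 8.76 of the rest. The macrophage and injury means of that kidney were only slightly above the next highest of week 2. Week 3 replicate 2, with Serpina6 at 6.68, had higher means of both lists, 4.75 and 6.18. The part of these list means in the Serpina6 levels was not tested.

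The genes that handle glucocorticoid inside the tissue were compared with a model fitted to all 45037 probe sets, in which 1.5% were called higher and 0.961% lower in weeks 1 to 3 than in untreated kidneys. Of 16 measured members 2 rose and 0 fell. Hsd11b1, the reductase that regenerates active corticosterone, had a mean of 8.81 ± 0.44 in untreated kidneys and 9.58 ± 0.13 over weeks 1 to 3, with no overlap, a log2 difference of 0.77 (SE 0.17, limma adjusted p = 0.0073). The call was lost without untreated replicate 1 (0.57, adjusted p = 0.13) or untreated replicate 3 (0.72, adjusted p = 0.073), and with the beta-actin 3′ to 5′ ratio as a covariate (0.65, adjusted p = 0.26). That ratio, a sign of RNA quality, was 1.47 to 1.75 in untreated and 1.68 to 2.19 in treated kidneys. Abcb1a, a P-glycoprotein that exports steroids, went from 4.44 ± 0.38 to 5.95 ± 0.23, also with no overlap, a difference of 1.51 (SE 0.17, limma adjusted p = 2.77e-07). Its other probe set, which is dim, gave 0.65 (adjusted p = 0.082).

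Between weeks 7 and 9 and weeks 1 to 3, where 11.2% of probe sets were called higher and 9.41% lower, 3 of the 16 rose and 3 fell. Akr1d1, the 5-beta-reductase that inactivates glucocorticoids, ranged from 8.10 to 9.98 in weeks 1 to 3 and from 6.16 to 8.41 in weeks 7 and 9, a difference of -1.68 (SE 0.21, limma adjusted p = 2.56e-07). Abcb1b, another P-glycoprotein, differed by -0.64 (SE 0.15, adjusted p = 0.002). Week 1 replicate 4 and week 2 replicate 4, both with adrenal transcripts, held the highest levels of both genes, and without the 4 kidneys named above the differences were -1.46 and -0.53 (adjusted p = 7.505e-07 and 0.013). Nr3c2, the mineralocorticoid receptor, differed by -0.31 (limma adjusted p = 0.0085). H6pd, which supplies cofactor to the reductase, rose by 0.54, and the chaperones Ptges3 and Hsp90aa1 rose by 0.19 and 0.27. The Hsp90aa1 call was lost without those 4 kidneys (0.26, adjusted p = 0.053) and without any one of week 7 replicates 2 and 5 and week 9 replicates 1 and 5 (adjusted p = 0.051 to 0.068). Nr3c1, the glucocorticoid receptor, differed by -0.02 early and -0.08 late (adjusted p = 0.96 and 0.44), and Hsd11b2, which inactivates corticosterone in the distal nephron, by -0.03 and -0.16 (adjusted p = 0.94 and 0.19). Fkbp5, a glucocorticoid-induced immunophilin, differed by 0.10 and 0.17 (adjusted p = 0.93 and 0.69).

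Genes known to respond to glucocorticoids moved in both directions, and late. Of 22 measured members none passed the limma test in weeks 1 to 3 (1 higher and 3 lower at an unadjusted p below 0.05). In weeks 7 and 9, 9 rose (40.9%) and 4 fell (18.2%), beside 11.2% higher and 9.41% lower over all probe sets. These bases are unlike, because 18 of the 22 lay above the median probe set level and the shares over all probe sets include dim ones. The same holds for 14 of the 16 handling genes, 15 of the 24 transcription factors and 38 of the 39 proximal tubule genes. Cebpd, a transcription factor of the acute phase, rose by 1.49, the cell cycle inhibitor Cdkn1a by 1.26, Angptl4 by 1.05 and the mTOR inhibitor Ddit4 by 0.95. Cdkn1a is also on the list of tubular injury markers. Igfbp1, an insulin-like growth factor binding protein, fell from 10.4 to 8.48, a difference of -1.90. Pck1, a key enzyme of gluconeogenesis, went from 4.31 to 3.31 on a dim probe set. Those levels lie near or below the 4.14 that control probe sets reached, so its fall has no exact size. Without untreated replicate 2 the early count that fell was 1, and without week 9 replicate 4 the early count that rose was 1.

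The other serpins of the same clade were mostly dim, and their late shares called were near those of all probe sets. Of 14 measured clade A members 3 were above the median probe set level. In weeks 1 to 3 none passed the limma test in either direction (1 higher and 1 lower at an unadjusted p below 0.05), against 1 that rose and 2 that fell without untreated replicate 2. In weeks 7 and 9, 2 rose and 2 fell, 14.3% each, near the 11.2% and 9.41% of all probe sets called higher and lower. Serpina10, the protein Z-dependent protease inhibitor and a neighbour of Serpina6 in the RefSeq gene order of the mouse, had a mean of 5.31 ± 0.50 in weeks 1 to 3 and 7.73 ± 1.23 in weeks 7 and 9, a rise of 2.41 (SE 0.28, limma adjusted p = 1.27e-07), on a probe set that can read several transcripts. Serpina3n, an acute phase antitrypsin relative, rose by 0.89 but stayed dim, at 3.32. Serpina1b, an alpha-1-antitrypsin, differed by -0.69 and Serpina1a by -0.43, both on genes with near-identical copies whose probes can cross-hybridise, and the other Serpina1b probe set gave -0.54 (adjusted p = 0.056). Serpina1f, the closest measured gene on the other side, was bright at 9.34 in weeks 1 to 3 and differed by 0.09 (adjusted p = 0.48).

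Transcription factors of liver and tubule, which include known regulators of liver genes, fell in part. Of 24 measured, none passed the limma test in weeks 1 to 3 (2 higher and 1 lower at an unadjusted p below 0.05). A call (1 gene) appeared there without untreated replicate 1 or 2, week 1 replicate 4, week 3 replicate 5 or week 5 replicate 5. In weeks 7 and 9, 2 rose (8.33%) and 10 fell (41.7%), beside 11.2% and 9.41% over all probe sets, and 4 rose without week 7 replicate 4. The PAR-domain factors of circadian output fell, with differences of -1.07 for Hlf, -0.80 for Dbp and -0.75 for Tef, and so did Ppara, a regulator of fatty acid oxidation, at -0.58. Cebpd, which is on the responsive list too, rose by 1.49 and Cebpb by 0.57, the latter by its brightest probe set, with 0.10 (adjusted p = 0.39) as the mean of its probe sets. Hnf4a, a nuclear receptor of hepatocytes and proximal tubule, went from a bright 12.1 to 11.9, a difference of -0.21 (adjusted p = 0.0094).

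Of the 5 tested lists, proximal tubule genes had the largest share that fell. Of 39 measured none was called in weeks 1 to 3 by limma (0 in either direction at an unadjusted p below 0.05), and in weeks 7 and 9, 30 fell (76.9%) and 3 rose (7.69%), beside 9.41% lower and 11.2% higher over all probe sets, with a median difference of -0.58 against 0.0031 for all genes. The list mean was 8.87 in week 7 replicate 4, 8.81 in week 9 replicate 2 and 8.78 in week 9 replicate 3, close to the untreated kidneys, and 7.92 to 8.43 in the other 7 kidneys of those weeks. The neutral amino acid transporter Slc6a19 fell from 8.35 to 6.82, the organic anion transporters Slc22a7 and Slc22a8 from 9.65 to 8.13 and from 8.93 to 7.47, the argininosuccinate synthase Ass1 from 9.21 to 7.88 and the phosphate transporter Slc34a3 from 6.25 to 4.93. Cyp24a1, the vitamin D hydroxylase, rose by 0.95. Serpina6 lay lower than in every untreated kidney at weeks 2 and 3, when the proximal tubule list mean was 8.87 to 9.00 against 8.81 to 8.88 in untreated kidneys. The part of tubule transcripts in the Serpina6 levels was not tested.

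**Figure D4:**
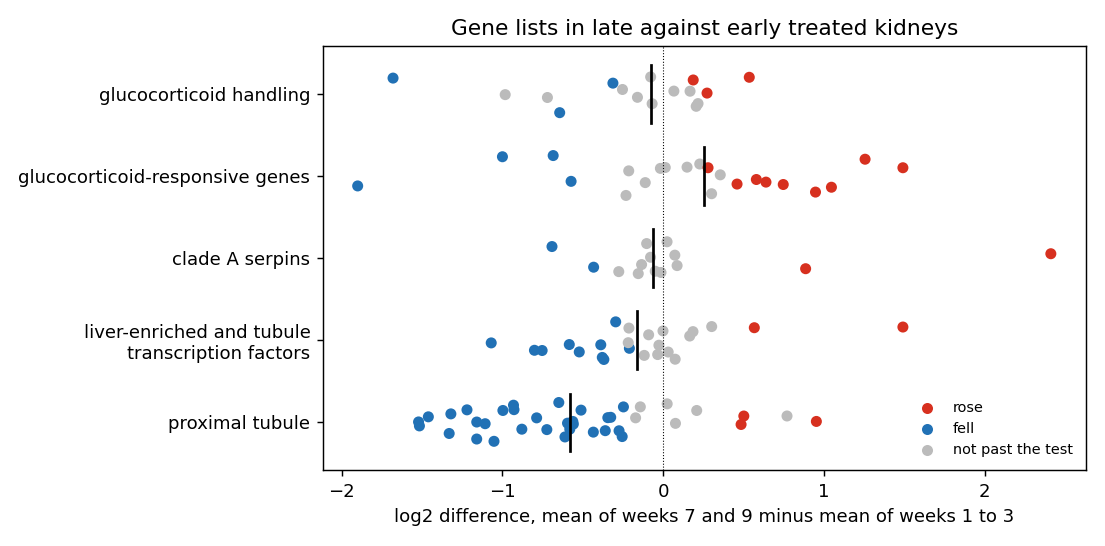
Log2 difference of each measured gene, mean of weeks 7 and 9 minus mean of weeks 1 to 3 (horizontal axis), for 5 gene lists (vertical axis), 1 point a gene, red for genes that rose, blue for those that fell and grey for those not past the test, with a black line at the list's median. Proximal tubule genes lie mostly on the negative side, with 30 that fell and 3 that rose, and Serpina10 is the point farthest to the right.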

How the data were processed

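Kidney RNA was extracted with Trizol, labelled with the NuGEN Ovation Biotin system and hybridised to HT-MG-430 PM arrays, 1 array a kidney. The values are log2 intensities that the authors normalised by RMA and deposited (the submitters' notes list RMA and Partek without versions), used here as given, so the normalisation ties all 33 arrays together. Of 45141 probe sets, 104 controls were left out. For genes with several probe sets the one with the highest mean was used. Limma 3.58.1 in R 4.3.3 was fitted to 7 group means over all arrays, with Benjamini-Hochberg adjustment over 45037 probe sets and a threshold of 0.05, tested on simulated data. Correlations were taken over the 30 treated kidneys. The gene, the lists and the tests were chosen with earlier results of these data known. Named genes were the 6 largest changes per list and comparison past the threshold and the 10 highest and 10 lowest correlations per measure, without symbols that are no official name. Every glucocorticoid handling gene and every member of the marker lists could be named. Hsd3b1, Star, Hnf4a, Cyp24a1 and Serpina1f lie outside this rule and were named after their values were seen. Pairs of kidneys sharing a replicate number had a median correlation of deviations of -0.01 over 93 pairs, so numbers were not used as pairs. Nothing says whether the kidneys of a group came from separate mice or from which of the study's longitudinal experiments. P-values therefore measure the spread between these samples. The number of arrays limits the precision.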

Additional observations from a re-analysis of the deposited data

How the results depend on the processing

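Serpina6 differences from untreated kept their direction under every alternative tried and moved by less than the SD of their week. With a replicate left out they ranged from -0.36 to -0.19 at week 1, -1.66 to -1.09 at week 2, -1.07 to -0.92 at week 3, -2.44 to -1.92 at week 5, -4.28 to -3.75 at week 7 and -4.55 to -4.02 at week 9. With the replicate block the glucocorticoid-responsive count that fell in weeks 1 to 3 was 1 in place of 0, and no other list count moved by over 1.5 times. With a replicate left out, the early counts of glucocorticoid handling that rose ranged from 1 to 2, those of responsive genes from 0 to 1 in each direction, those of clade A serpins from 0 to 1 that rose and 0 to 2 that fell, those of transcription factors from 0 to 1 in each direction, and the late count of transcription factors that rose from 2 to 4. The early handling count that rose was 1 with the beta-actin covariate. With only the groups compared, 1 responsive gene and 2 proximal tubule genes rose early. A transcription factor (1) rose early without dim probe sets, with arrays centred, and without the 4 kidneys with adrenal or liver transcripts (chosen after seeing the data). Without dim probe sets 1 clade A serpin rose late and 1 fell, and with the mean of probe sets 1 transcription factor rose late.

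Counts of correlated genes depended on the kidneys used. At 0.8 or more by value, the 160 genes were 38 by Spearman rho, 73 without the 2 kidneys farthest from the median, 32 with weeks 1 to 3 alone, and 281, 332, 80 and 64 without weeks 2, 5, 7 and 9. At -0.8 or less, the 285 were 149 by rho, 178 without the farthest kidneys, and 16 and 174 with weeks 1 to 3 and 5 to 9 alone. At 0.7 or more by deviation, the 6 were 2 by rho, 12, 43, 11 and 20 without weeks 1, 2, 3 and 5, 87 and 154 with weeks 1 to 3 and 5 to 9 alone, 28 with the beta-actin ratio removed, and 10 without the 4 kidneys. At -0.7 or less, the 17 were 9 by rho, 4 without the farthest kidneys, 37, 76, 45, 28, 54 and 4 without weeks 1, 2, 3, 5, 7 and 9, 112 and 273 with weeks 1 to 3 and 5 to 9 alone, 8 with arrays centred, 58 with the beta-actin ratio removed and 36 without the 4 kidneys. With a replicate left out these 4 counts ranged from 108 to 242, 221 to 365, 0 to 25 and 2 to 76. With weeks 1 to 3 alone the correlation changed sign for Slc12a3 (-0.016) and Echs1 (-0.27) by value and for Aqp4 (-0.22) by deviation. Of 1186 recomputed differences of named genes, 1177 kept their direction and call, 9 lost the call and 0 reversed. The cause of these changes was not tested. Signal near that of nonspecific probe sets limits most of the week 7 and week 9 Serpina6 values and that of week 5 replicate 1.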
